A study of Mus musculus with 12 samples.

Results

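Astrocytes keep the extracellular fluid of the brain in balance. They clear glutamate and potassium, move water, couple to one another through gap junctions, supply neurons with metabolites and secrete lipid carriers. The genes behind these tasks are active in resting astrocytes. A list of 40 such astrocyte homeostatic genes was followed through RNA libraries of the dorsal raphe (DR), the midbrain nucleus that holds most serotonergic neurons. The members were given by symbol, and 38 of the 40 had a row among the 24421 genes of the files. The symbols Ntsr2x and Slco1c1x matched no row, so the genes Ntsr2 and Slco1c1, whose names differ from them by the last letter, were kept apart from the members. All 38 members passed the filter on low counts, as did 15453 genes in total.

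Libraries were made from 12 mice, 1 per animal and with no pooling. The 8 STAT3 KO mice (4 females and 4 males) were Sert Cre/+; Stat3 fl/fl, and the 4 controls (2 females and 2 males) were littermates of the genotype Sert Cre/+; Stat3 fl/+. All animals thus carried Cre and at least 1 floxed Stat3 allele, on a C57BL/6 x 129 background, were untreated as far as the labels tell, and were adults whose age is not on the labels. Cre was expressed from the gene of the serotonin transporter, so the deletion was directed at serotonergic neurons and not at astrocytes, and the libraries were made from whole DR tissue. Animals are named below by genotype and by the number in their label.

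The gene counts of a library summed to 24379588 to 29645210, and a count of 3, the floor used here, equalled 0.101 to 0.123 CPM, a limit that covers counting error only. Levels are CPM, the count of a gene scaled to a common total of the reads on genes, and differences are log2 fold changes of KO over control from edgeR's quasi-likelihood test with Benjamini-Hochberg adjustment over all 15453 genes, each with its standard error (SE). Stat3, counted over the whole gene and not over the deleted exons alone, was at 65.9 ± 1.26 CPM in controls (SD, n = 4) and at 66.6 ± 2.90 CPM in KO mice (SD, n = 8), so the whole-gene count does not check the deletion. The serotonergic neurons of the piece were seen in Slc6a4, with a log2 fold change of -0.08, and Tph2, with 0.05. Libraries differed in markers of cells from outside the DR, and how these came into a library was not tested. Summed CPM of choroid plexus markers were 275 in STAT3 KO 8 and 268 in STAT3 KO 16 against 40.7 to 55.2 in the other 10 libraries. Those of forebrain neurons were 495 in control 4 against 82.7 to 165. Those of cerebellar neurons were 1255 in STAT3 KO 16 and 887 in STAT3 KO 10 against 352 to 543. Since each library holds RNA of all cells of the piece, fewer astrocytes and less RNA per astrocyte cannot be told apart.

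The tissue held astrocyte RNA in every library: each member with a row was measured far above the floor, at mean levels between 5.70 and 1858 CPM in the controls. Scaled to the length of annotated exons (GENCODE vM21, GRCm38), the highest member was Apoe, the lipid carrier of astrocytes, at 791 CPM per kb over all animals. It was followed by Glul, which turns glutamate into glutamine, at 555 CPM per kb, by the glycolytic enzyme gene Aldoc at 491 CPM per kb and by Ndrg2 at 393 CPM per kb. These genes stood in the same order in the means of both genotypes. At the lower end were the urea transporter gene Slc14a1 at 5.74 CPM per kb, Cbs of cysteine synthesis at 4.12 CPM per kb, the cystine/glutamate exchanger gene Slc7a11 at 1.93 CPM per kb and Gldc of glycine cleavage at 1.03 CPM per kb. The spread between animals was small for most members. The biological coefficient of variation fitted by edgeR ran from 5.47% for Slc1a2 to 24.1% for Fabp7, and the highest animal stood 1.14 times above the lowest for Atp1b2 and 2.96 times for Fabp7.

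**Figure D1:**
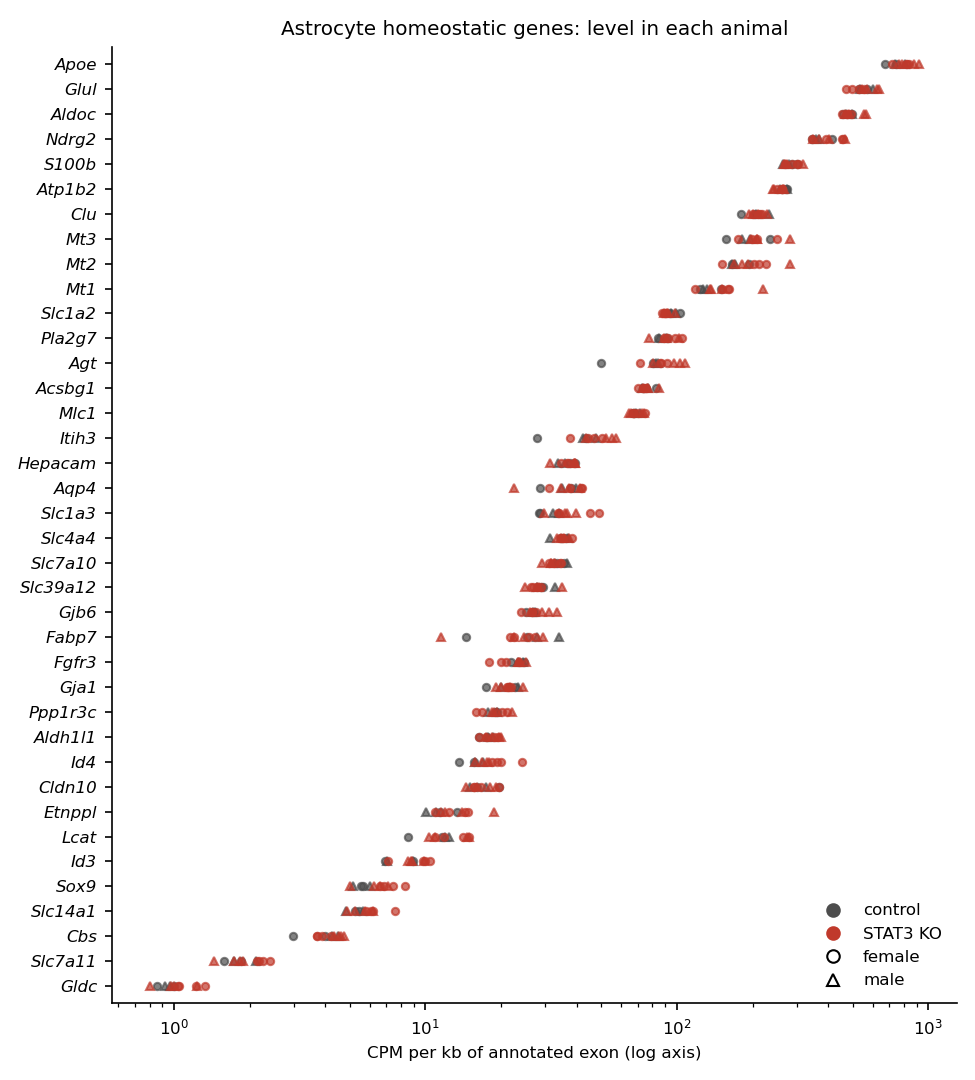
Level of the 38 members in each of the 12 animals, in CPM per kb of annotated exon on a log axis, with genes ordered by their mean; grey marks are controls, red marks STAT3 KO mice, circles females and triangles males. The means run from 1.03 for Gldc to 791 for Apoe, and the genotypes overlap in every row.

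The first question was whether loss of Stat3 in serotonergic neurons went with another level of these astrocyte genes. No member differed between genotypes at an adjusted p below 0.05, and 0% of all genes tested did. The lowest adjusted p among the members was 0.616 in edgeR's quasi-likelihood test, shared by 6 genes. At an unadjusted p below 0.05, 3 members (Slc1a3, Sox9 and Id4) were higher in KO mice, where 3.61% of all genes were, and 3 members (Slc1a2, Atp1b2 and Slc7a10) were lower, where 4.05% of all genes were. When every division of the 12 animals into sets of 4 and 8 was enumerated, an exact permutation test whose smallest possible p is 0.00202, 3 members were higher at a p below 0.05 (5.44% of all genes) and 2 lower (1.79% of all genes), the latter being Slc1a2 and Slc7a10. In no member were the genotypes free of overlap, against 0.492% of all genes. With DESeq2 none of the 20 members that received an adjusted p passed, against 0.144% of the 1391 genes with one. The other 18 members received none. The lowest DESeq2 adjusted p of a member was 0.0652, for Slc1a2. That value was adjusted over 1391 genes and the edgeR values over 15453, so they are not on 1 scale.

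The log2 fold changes of the 38 members lay between -0.16 (Fabp7) and 0.28 (Slc1a3), with a median of 0.05 beside -0.0011 over all genes tested. A log2 fold change above 0 was found in 25 of 38 members, and in 49.4% of all genes. Under the other settings that number was from 21 (limma-voom, 48.8% of all genes) to 29 (library totals alone, 61.1%). The scale factors bear on this split. Without TMM factors, by library totals alone, the median over all genes was 0.0218, beside -0.0011 with TMM. In that setting 5 members were higher at an unadjusted p below 0.05 (5.57% of all genes) and 2 lower (2.21% of all genes). Over all genes 558 were higher and 626 lower with TMM, and 861 higher and 342 lower with library totals alone.

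**Figure D2:**
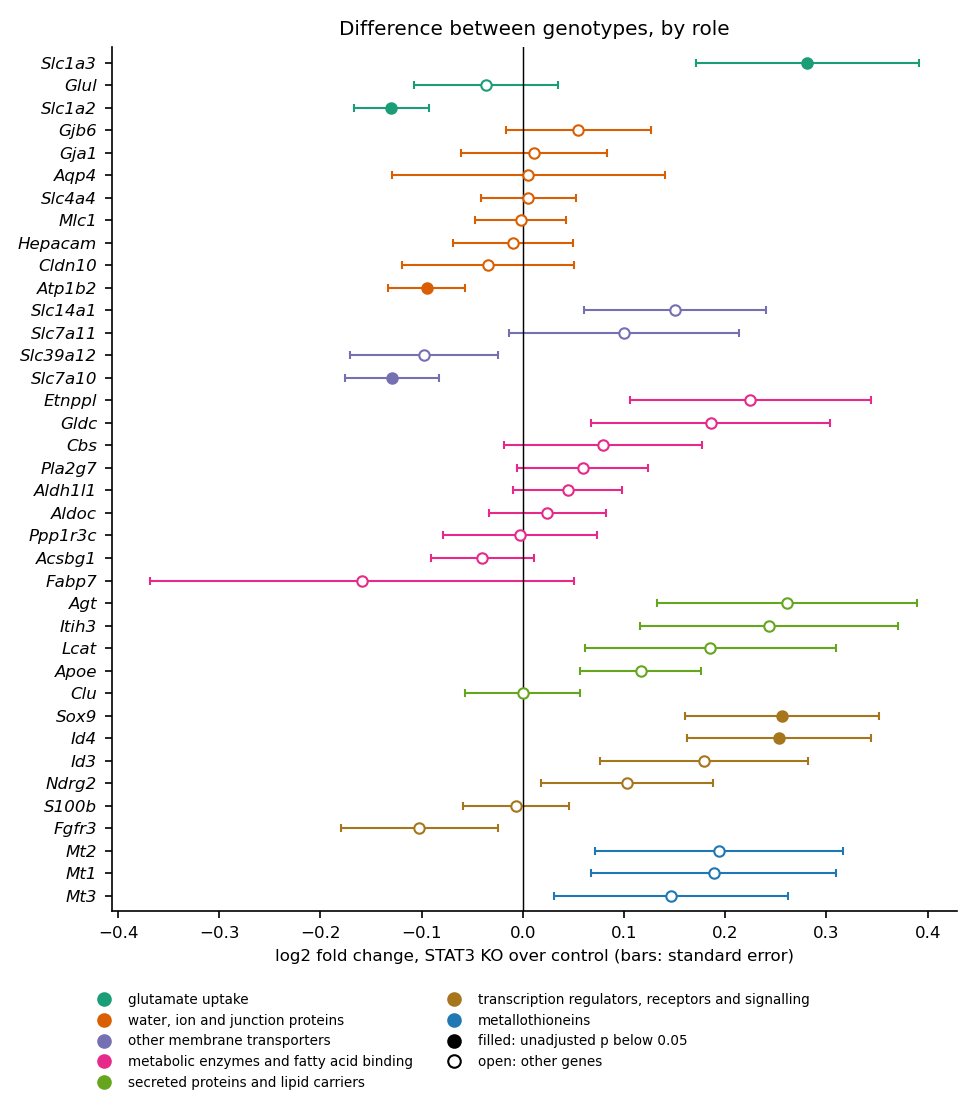
Log2 fold change of each member, STAT3 KO over control, with its standard error as a horizontal bar, grouped by role; filled points have an unadjusted p below 0.05 in edgeR's quasi-likelihood test (4 control and 8 STAT3 KO mice). The 5 secreted proteins and the 3 metallothioneins lie at or right of 0, and the ion, water and junction genes lie around it.

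Of the 3 glutamate uptake genes, 1 had a log2 fold change above 0 and 2 below, none with an adjusted p below 0.05 in edgeR's test, and differences between them were not tested. Slc1a2 encodes GLT-1, the main glutamate transporter of astrocytes, and Slc1a3 encodes GLAST, the second one, which is also the transporter of Bergmann glia in the cerebellum. Slc1a2 (ENSMUSG00000005089, chr2:102658659-102790784, plus strand) was at 1351 CPM in control 13, 1249 in control 4, 1236 in control 3 and 1305 in control 11, and in KO mice its lowest value was 1147, its median 1180 and its highest 1289 CPM. The only KO mouse above the lowest control was number 8, and the other 7 were below every control. This was a log2 fold change of -0.13 (SE 0.04, adjusted p = 0.616, exact permutation p = 0.0101), from 1285 ± 52.9 CPM in controls (SD, n = 4) to 1193 ± 43.6 CPM in KO mice (SD, n = 8). Slc1a2 kept its sign and an unadjusted p below 0.05 under all 22 alternative settings, with values from -0.16 to -0.10.

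Slc1a3 (ENSMUSG00000005360, chr15:8634124-8710764, minus strand) was at 243 CPM in control 13, 289 in control 4, 243 in control 3 and 274 in control 11. In KO mice it was lowest at 253, had a median of 309 and was highest at 420 CPM. In all, 5 of the 8 KO mice lay above every control and none below all of them, with numbers 10 and 16 highest. Its log2 fold change was 0.28 (SE 0.11, adjusted p = 0.616, exact permutation p = 0.0485), and the unadjusted p of 0.0215 was 0.0657 without control 13 and 0.0616 without control 3. Its correlation over the 12 libraries was 0.69 with Bergmann glia markers and 0.68 with cerebellar neuron markers (Spearman's rho 0.50 and 0.34), the latter of which were highest in KO mice 16 and 10. Of the 6 Bergmann glia markers, 4 had a log2 fold change above 0 and 2 below, from -0.65 (Wif1) to 1.75 (Gdf10), these 2 genes having an unadjusted p below 0.05, and none was at 0 in every library, with summed levels of 470 to 516 CPM in controls and 445 to 551 CPM in KO mice. All 10 cerebellar neuron markers had a log2 fold change above 0, 3 of them at an unadjusted p below 0.05 (3.61% of all genes higher), with summed levels of 371 to 467 CPM in controls and 352 to 1255 CPM in KO mice. The part of these cells in the Slc1a3 values was not tested.

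Glul completes the uptake cycle. It was at 1755 to 1997 CPM in the controls and at 1570 to 2112 CPM in KO mice, with a log2 fold change of -0.04 (SE 0.07, adjusted p = 0.956), which was 0.0026 without control 4. The KO mice spread on both sides of the controls.

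Among the 8 genes of water, ion and junction proteins, 4 had a positive and 4 a negative log2 fold change, with a median of 0.0014. The number above 0 was between 1 (limma-voom, 48.8% of all genes) and 6 (library totals alone, 61.1%) under the other settings. Atp1b2, the beta-2 subunit of the sodium pump that astrocytes use to take up potassium, was the one with an unadjusted p below 0.05. It was at 1111 CPM in control 13, 1049 in control 4, 1124 in control 3 and 1125 in control 11, and at 984 to 1090 CPM in KO mice, with a median of 1068. All KO mice were below the control mean, and 3 of 8 were below every control. The log2 fold change was -0.10 (SE 0.04, adjusted p = 0.616, exact permutation p = 0.0505). It did not hold an unadjusted p below 0.05 with library totals alone (0.0714), with the likelihood ratio test (0.0508) or without control 13, 3 or 11 (0.0584 to 0.0893).

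Aqp4, the water channel of astrocyte endfeet, was at 178 to 248 CPM in controls and at 141 to 262 CPM in KO mice, with STAT3 KO 6 lowest. Its log2 fold change was 0.0055 (SE 0.13), from -0.08 without control 3 to 0.08 without STAT3 KO 6. The connexin genes of astrocyte gap junctions had log2 fold changes of 0.01 for Gja1 (SE 0.07), from -0.06 without control 3 to 0.07 without control 11, and 0.05 for Gjb6 (SE 0.07), or 0.02 without STAT3 KO 6. The other 4 genes were Slc4a4 of bicarbonate transport, Mlc1 and its partner Hepacam of the membrane complex for volume regulation, and the claudin gene Cldn10. Their log2 fold changes lay between -0.03 and 0.0052, each within 1 SE of 0, and each changed sign when some single animal was left out.

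Of the other membrane transporters, Slc7a10, which encodes the exchanger of D-serine, glycine and alanine, was lower in KO mice at an unadjusted p below 0.05. It was at 75.4 CPM in control 13, 69.0 in control 4, 70.7 in control 3 and 77.0 in control 11, and ran from 61.4 to 72.8 CPM in KO mice with a median of 67.6. In all, 6 of the 8 KO mice lay below every control, and all 8 below the control mean. The log2 fold change was -0.13 (SE 0.05, adjusted p = 0.616, exact permutation p = 0.0465), with an unadjusted p of 0.0527 without control 13 and 0.0780 without control 11. Of its exon bases 17.9% overlap Lrp3 on the other strand, and whether the counting used strand is not given in the sources used here, so part of its count may belong to Lrp3.

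The zinc transporter gene Slc39a12 had a log2 fold change of -0.10 (SE 0.07, unadjusted p = 0.200), and STAT3 KO 8 was its highest animal. Without that animal the value was -0.15 with an unadjusted p of 0.0111, and without control 11 it was -0.04 with an unadjusted p of 0.593. Slc14a1 was at 19.3 to 22.5 CPM in controls and at 19.5 to 30.2 CPM in KO mice, with 6 of 8 KO mice above every control and a log2 fold change of 0.15 (SE 0.09, adjusted p = 0.752, edgeR), or 0.10 without STAT3 KO 10. Slc7a11 had 0.10 (SE 0.11), which ran from 0.04 without control 3 to 0.19 without control 4, and is taken up again with sex. Slco1c1, the thyroxine transporter gene that one unmatched symbol resembles, was at 62.8 ± 3.60 CPM in controls and 56.8 ± 5.02 CPM in KO mice, a log2 fold change of -0.17 (SE 0.06, adjusted p = 0.616). Ntsr2, the neurotensin receptor gene that the other one resembles, had 0.04 (SE 0.06, adjusted p = 0.913).

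None of the 9 metabolic and fatty acid binding genes reached an unadjusted p below 0.05, and 6 of them had a positive log2 fold change. The largest were those of Etnppl, a phospholyase of phosphoethanolamine, at 0.22 (SE 0.12, adjusted p = 0.698) and of Gldc at 0.19 (SE 0.12, adjusted p = 0.767). Etnppl was at 82.8 to 110 CPM in controls and at 90.3 to 155 CPM in KO mice, with STAT3 KO 6 highest, and its value was 0.15 without that animal. Aldh1l1, the folate enzyme gene by which astrocytes are commonly recognised, was at 73.8 to 83.7 CPM in controls and at 74.0 to 90.1 CPM in KO mice, a log2 fold change of 0.04 (SE 0.05), or 0.02 without control 3 and 0.07 without control 4. Of the 8 KO mice 4 were above every control for Aldh1l1, and the other 4 lay within the range of the controls. Aldoc, Cbs and Pla2g7, a lipase that breaks down platelet-activating factor, had log2 fold changes of 0.02, 0.08 and 0.06. With 1 animal left out Pla2g7 ran from 0.03 to 0.10, while Aldoc was -0.0039 without STAT3 KO 6 and Cbs was -0.03 without control 3 and 0.15 without control 4. Those of Acsbg1, an acyl-CoA synthetase, and Ppp1r3c, which steers glycogen synthesis, were -0.04 and -0.0028, and became 0.0039 without control 3 and 0.04 without STAT3 KO 5.

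Fabp7, a fatty acid binding protein gene of radial glia and astrocytes, had the most variable values of all members. It was at 31.8 CPM in control 13, 34.6 in control 4, 18.1 in control 3 and 42.7 in control 11, and at 14.4 to 36.8 CPM in KO mice with a median of 29.5. The lowest values of the genotypes, in control 3 and STAT3 KO 6, were far from the rest of their groups. The log2 fold change of -0.16 (SE 0.21, adjusted p = 0.918) became -0.35 without control 3, -0.06 without STAT3 KO 6 and 0.02 without control 11, so its direction was not stable.

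Of the 5 genes of secreted proteins and lipid carriers, 4 had log2 fold changes of 0.12 to 0.26 and Clu had one near 0. The median was 0.19, or 0.08 without control 3, and none had an unadjusted p below 0.05. Agt encodes angiotensinogen, the precursor of the angiotensins, which astrocytes make in the brain. It was at 152 CPM in control 13, 159 in control 4, 94.5 in control 3 and 156 in control 11. In KO mice it ran from 135 to 204 CPM with a median of 168, so that 6 of 8 stood above every control. Control 3 stood far below all other animals. The log2 fold change was 0.26 (SE 0.13, adjusted p = 0.661, exact permutation p = 0.0747). Without control 3 it was 0.12, with an unadjusted p of 0.269.

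Itih3, which encodes a heavy chain that binds hyaluronan, had a like pattern, at 158, 173, 101 and 154 CPM in controls 13, 4, 3 and 11 and at 137 to 208 CPM in KO mice with a median of 177. Control 3 was again lowest. Its log2 fold change of 0.24 (SE 0.13, adjusted p = 0.695, exact permutation p = 0.0929) was 0.11 without control 3. Apoe was at 1438 to 1732 CPM in controls and at 1536 to 1956 CPM in KO mice, a log2 fold change of 0.12 (SE 0.06, adjusted p = 0.686), or 0.08 without control 3. Lcat, which esterifies the cholesterol of these particles, had 0.19 (SE 0.12), and was 0.08 without control 3. Clu, the clusterin gene, had the value nearest to 0, at 2.08e-05 (SE 0.06), and was -0.05 without control 3 and 0.07 without control 11.

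Of the 6 transcription regulators, receptors and signalling genes, 4 had a positive log2 fold change, with a median of 0.14 over the group. Sox9 is the transcription factor of astrocyte identity, which ependymal cells also carry. It was at 23.3 CPM in control 13, 21.4 in control 4, 22.9 in control 3 and 24.8 in control 11, and at 20.8 to 34.2 CPM in KO mice with a median of 27.9. Of the 8 KO mice 7 were above every control, and STAT3 KO 8 was below all of them. For Sox9 the log2 fold change was 0.26 (SE 0.10, adjusted p = 0.616, exact permutation p = 0.0424), and the unadjusted p was 0.0171, or 0.0562 without control 4.

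Id4, an inhibitor of basic helix-loop-helix factors that holds back differentiation, was at 60.0 CPM in control 13, 65.2 in control 4, 52.3 in control 3 and 60.4 in control 11, and at 60.8 to 93.0 CPM in KO mice with a median of 69.9. All 8 KO mice were above the control mean, and 6 above every control. For Id4 the log2 fold change was 0.25 (SE 0.09, adjusted p = 0.616, exact permutation p = 0.0242), with an unadjusted p of 0.0136, or 0.0579 without control 3. Its relative Id3 had 0.18 (SE 0.10, adjusted p = 0.735). Ndrg2 had 0.10 (SE 0.08), or 0.17 without control 3, the calcium-binding S100b -0.0066 (SE 0.05), or 0.03 without control 3, and the growth factor receptor gene Fgfr3 -0.10 (SE 0.08), or -0.06 without STAT3 KO 5.

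Ependymal cells line the aqueduct above the DR, and their markers were compared with the same genes. All 10 ependymal markers had a log2 fold change above 0, with a median of 0.77, and none was at 0 in every library. Of them 6 had an unadjusted p below 0.05 (3.61% of all genes higher), and none had an adjusted p below 0.05 in edgeR's quasi-likelihood test. DESeq2 gave an adjusted p to only 1391 genes for genotype, and whether these markers were among them was not examined. The summed levels of the ependymal markers were 30.4 to 88.1 CPM in controls and 47.8 to 119 CPM in KO mice. Without control 4 the number with an unadjusted p below 0.05 was 2 (4.04% of all genes higher), and without control 13 it was 3 (2.5%). It was 10 without control 11 (4.58%), without STAT3 KO 8 (5.18%) and with limma-voom (4.92%). Over the 12 libraries the correlation with the mean of these markers was 0.81 for Sox9, 0.57 for Id4, 0.49 for Slc1a3 and -0.70 for Slc1a2. It was only -0.06 for Atp1b2 and -0.14 for Slc7a10. With the reactive astrocyte genes it was 0.65 for Sox9, 0.73 for Id4, 0.65 for Slc1a3, -0.54 for Slc1a2, -0.555 for Atp1b2 and -0.41 for Slc7a10. Id4 had 0.58 with oligodendrocyte precursor markers. With the mean of 12 pan-neuronal markers the correlation was -0.75 for Sox9, -0.77 for Id4, -0.54 for Slc1a3, 0.69 for Slc1a2, -0.08 for Atp1b2 and 0.01 for Slc7a10. Those markers, none of them at 0, had 3 higher and 9 lower log2 fold changes in KO mice, 3 of the lower ones (Snap25, Nefl and Nefm) at an unadjusted p below 0.05, with summed levels of 11000 to 11860 CPM in controls and 10060 to 11320 CPM in KO mice. Slc1a2 also had 0.63 with 12 oligodendrocyte markers and 0.52 with 12 endothelial and pericyte markers. All 12 oligodendrocyte markers had a log2 fold change below 0, 2 of them at an unadjusted p below 0.05, with summed levels of 14780 to 16520 CPM in controls and 13150 to 17480 CPM in KO mice. The endothelial and pericyte markers had 11 values below 0, 1 of them at an unadjusted p below 0.05, with 448 to 537 CPM in controls and 403 to 568 CPM in KO mice. The libraries share the genotypes and a fixed total each, and the part of other cells in these differences was not tested. The share of all genes lower at an unadjusted p below 0.05 was 4.05%.

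**Figure D3:**
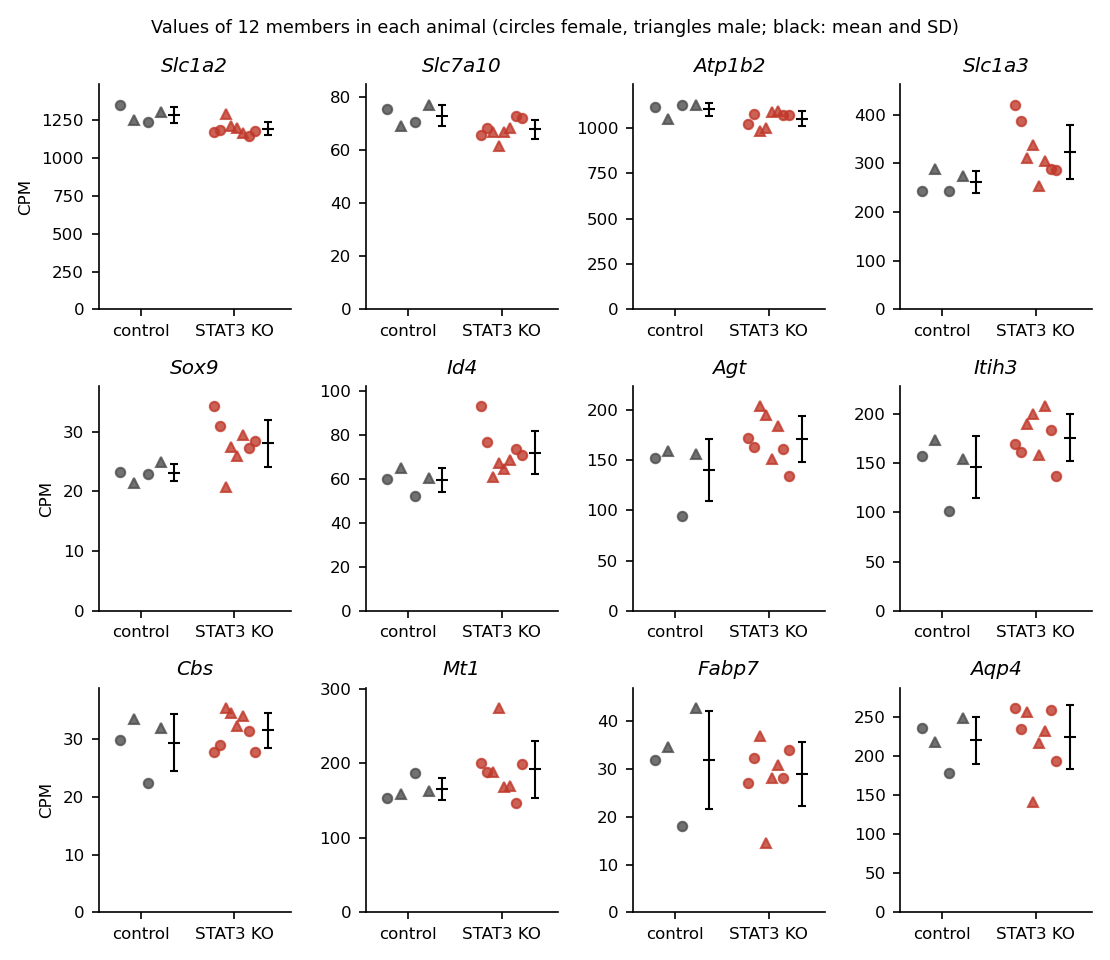
CPM of 12 members in each animal, controls in grey (n = 4) and STAT3 KO mice in red (n = 8), circles females and triangles males, with mean and SD in black; every axis starts at 0. Slc1a2, Slc7a10 and Atp1b2 lie slightly lower in KO mice, Slc1a3, Sox9 and Id4 higher, Agt and Itih3 have control 3 far below the other animals, and Mt1 has STAT3 KO 6 far above them.

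The metallothioneins are small cysteine-rich proteins that bind zinc and copper. Mt1 and Mt2 are induced by metals and glucocorticoids in many cells, Mt3 is particular to the brain, and the genes lie side by side on chromosome 8, all on the plus strand. The promoter sequences (RefSeq, GRCm38.p6, 250 bases before to 50 after the start of the gene) are shown since the expression of these neighbours moved together. Capitals mark matches to TGCACNC or TGCGCNC on either strand, the core letters of the metal response element.
Mt3: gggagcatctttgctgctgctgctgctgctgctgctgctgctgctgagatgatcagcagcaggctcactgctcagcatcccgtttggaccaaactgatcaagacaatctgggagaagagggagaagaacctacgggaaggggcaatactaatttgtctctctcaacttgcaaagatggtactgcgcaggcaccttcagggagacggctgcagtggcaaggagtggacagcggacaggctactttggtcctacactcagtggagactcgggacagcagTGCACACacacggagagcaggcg
Mt2: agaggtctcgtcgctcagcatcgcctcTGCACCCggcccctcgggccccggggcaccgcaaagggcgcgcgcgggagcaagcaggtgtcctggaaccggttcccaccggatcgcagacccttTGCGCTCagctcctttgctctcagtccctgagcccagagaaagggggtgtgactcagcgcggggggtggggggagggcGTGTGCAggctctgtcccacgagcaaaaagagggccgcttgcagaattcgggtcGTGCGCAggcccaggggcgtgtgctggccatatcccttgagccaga
Mt1: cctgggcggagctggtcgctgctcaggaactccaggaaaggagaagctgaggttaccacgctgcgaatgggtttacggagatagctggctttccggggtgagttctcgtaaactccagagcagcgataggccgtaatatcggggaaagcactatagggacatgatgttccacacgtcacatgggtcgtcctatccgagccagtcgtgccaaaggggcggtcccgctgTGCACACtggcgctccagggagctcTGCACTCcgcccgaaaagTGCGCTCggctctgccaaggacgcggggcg
The windows are chr8:94152357-94152656 for Mt3, chr8:94172368-94172667 for Mt2 and chr8:94178839-94179138 for Mt1. They hold 1, 4 and 3 matches. The letters are common, being found in 25.7% of 32851 promoters of that length and in 26.2% of the 42 promoters of the 33 members that have one in the table, so a match is a description and not a site.

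Mt1 was at 154 CPM in control 13, 159 in control 4, 187 in control 3 and 164 in control 11, and at 147 to 274 CPM in KO mice with a median of 188. Mt2 was at 97.8, 97.1, 114 and 101 CPM in controls 13, 4, 3 and 11 and at 88.8 to 166 CPM in KO mice with a median of 116. Mt3 was at 168, 208, 250 and 194 CPM in the same controls and at 187 to 300 CPM in KO mice with a median of 223. Control 3 was the highest control and STAT3 KO 6 the highest KO mouse for all of them, and the genotypes overlapped. The log2 fold changes were 0.19 for Mt1 (SE 0.12, adjusted p = 0.769), 0.19 for Mt2 (SE 0.12, adjusted p = 0.767) and 0.15 for Mt3 (SE 0.12, adjusted p = 0.837). Without STAT3 KO 6 they were 0.10, 0.11 and 0.08 in that order, and that of Mt3 was 0.06 without control 13 and 0.26 without control 3. Of the 75-base windows of Mt2, 30.2% also occur in Gm45774, so its count is uncertain.

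The letters TTCNNNGAA, the palindrome that STAT factors bind, were found in 8.30% of all promoters and in 6 of the 42 member promoters (14.3%), those of Acsbg1, Agt, Aldoc, Pla2g7, Slc1a3 and Slc7a11. The promoters of Slc1a3 and Agt, the members with the largest positive log2 fold changes over all 12 animals, with Agt at 0.12 without control 3, are given with these letters in capitals. Both lie on the minus strand, with Slc1a3 at chr15:8710758-8711057 and Agt at chr8:124569657-124569956, and the palindrome reads the same on both strands.
Slc1a3: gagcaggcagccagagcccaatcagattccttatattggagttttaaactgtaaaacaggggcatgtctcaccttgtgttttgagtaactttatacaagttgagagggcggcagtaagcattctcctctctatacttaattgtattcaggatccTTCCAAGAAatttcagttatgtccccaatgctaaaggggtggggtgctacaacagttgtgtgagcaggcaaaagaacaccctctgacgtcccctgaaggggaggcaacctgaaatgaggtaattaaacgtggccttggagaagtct
Agt: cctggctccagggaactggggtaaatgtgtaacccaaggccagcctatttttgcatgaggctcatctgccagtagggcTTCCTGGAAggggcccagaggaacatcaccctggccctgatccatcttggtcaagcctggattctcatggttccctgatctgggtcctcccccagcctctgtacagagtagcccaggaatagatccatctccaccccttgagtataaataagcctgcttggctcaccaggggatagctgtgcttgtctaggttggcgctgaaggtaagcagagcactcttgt
The first base of the match lies 96 bases before the start of Slc1a3 and 172 bases before that of Agt. The match says nothing of whether a factor was bound.

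Members were also set against each other over the 12 libraries. The pairwise correlation of log2 CPM had a median of 0.12 over 703 pairs, against 0.0097 over all pairs of genes tested, and 35 pairs (4.98%) were above 0.70, against 1.56% of all pairs. Each member was then correlated with the mean of the others. The median was 0.35, and 32 of 38 members (84.2%) were above 0, where the median over all other genes with the mean of the members was 0.07 and 56.1% were above 0. Apoe followed the other members most closely (0.81), before Agt (0.74) and Slc1a3 (0.70). Atp1b2 (-0.73), Slc7a10 (-0.46) and Hepacam (-0.38) ran against them. The mean standardised level of the members was lowest in control 3 (-0.57) and highest in STAT3 KO 8 (0.62), and it had a correlation of 0.82 with the mean of 76 further astrocyte genes, or 0.65 without the 2 libraries farthest from the median. It was 0.67 with the choroid plexus markers and -0.09 with the pan-neuronal markers. These are descriptions over libraries that share a total and 2 genotypes.

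The members did not form a single block. Mt1 and Mt2 had the closest pair at 0.96 (Spearman's rho 0.92, and 0.88 without the 2 libraries farthest from the median of the first gene), and Mt3 followed Mt1 at 0.88. Etnppl (0.91) and Ndrg2 (0.88) followed Mt1 from animal to animal. A second group joined Agt and Itih3 at 0.95 (rho 0.89, 0.91 without the 2 farthest), and Cbs followed Itih3 at 0.89 and Agt at 0.87. Another group held Gja1 and Clu at 0.89 (rho 0.82, 0.74 without the 2 farthest). Sox9 and Id4 had 0.83, Gldc and Sox9 0.81, and Slc1a3 and Id4 0.83, the last falling to 0.57 without the 2 farthest libraries.

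Within genotypes these values stayed close, at 0.95 for Mt1 and Mt2, 0.94 for Agt and Itih3, 0.89 for Gja1 and Clu and 0.73 for Sox9 and Id4. Aqp4 and Fabp7 had 0.78 over all libraries and -0.07 without the 2 farthest, so their relation rested on those 2. Among negative pairs, Atp1b2 and Apoe had -0.88 (-0.75 without the 2 farthest), Slc7a10 and Etnppl -0.80 (-0.51), and Aqp4 and Mt3 -0.80 (-0.52), with the values without the 2 farthest in brackets. STAT3 KO 6 had both the highest Mt1, at 274 CPM, and the lowest Aqp4, at 141 CPM.

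**Figure D4:**
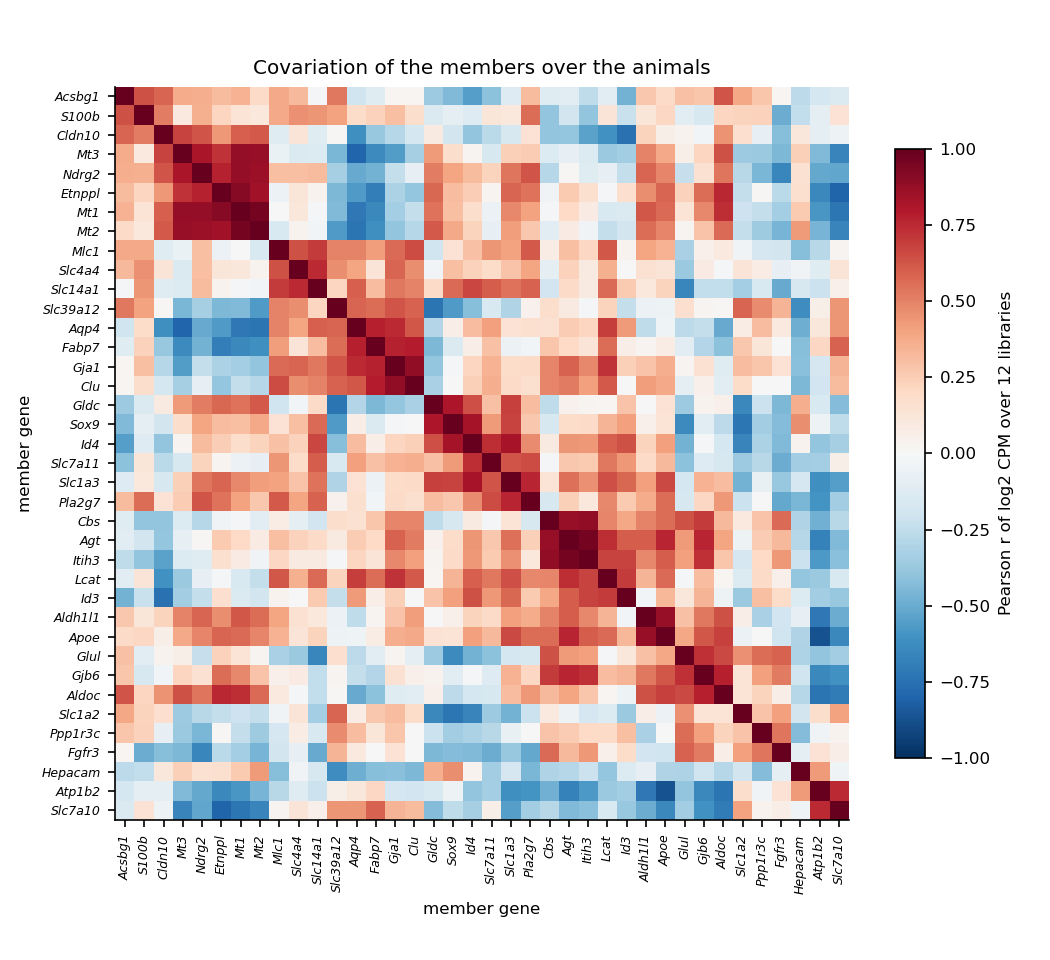
Pearson correlation of log2 CPM between the 38 members over the 12 libraries, from -1 (blue) to 1 (red), with genes ordered by average-linkage clustering of the same values. Mt1, Mt2, Mt3, Etnppl and Ndrg2 form one red block, Cbs, Agt and Itih3 another, and Atp1b2 and Slc7a10 are blue against most genes.

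**Figure D5:**
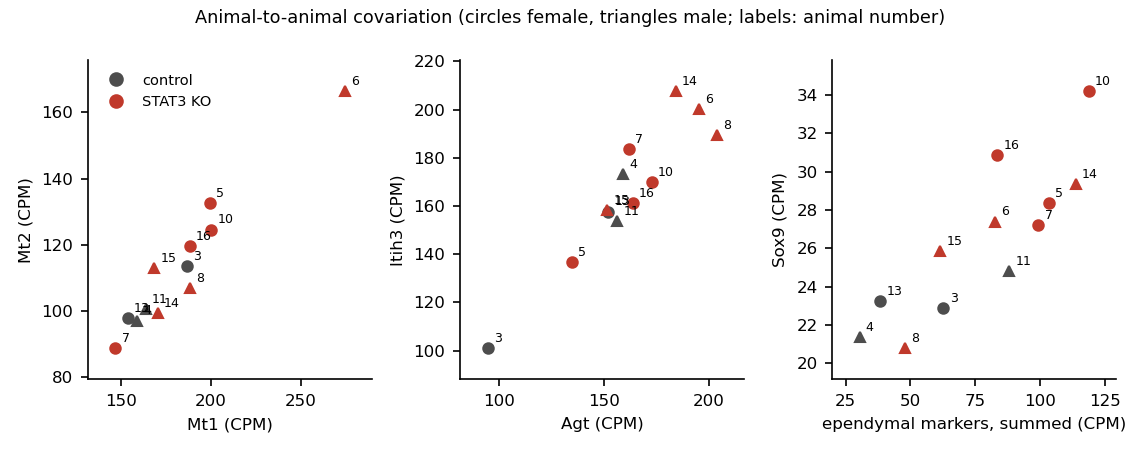
Values of each animal for Mt2 against Mt1, Itih3 against Agt and Sox9 against the summed ependymal markers, all in CPM, with controls in grey, STAT3 KO mice in red, circles for females and triangles for males; the labels are animal numbers, and the axes do not start at 0. STAT3 KO 6 is at the top right of the first panel, control 3 at the bottom left of the second, and the correlations of log2 CPM are 0.96, 0.95 and, for the summed markers of the third panel, 0.84.

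The genes outside the list that followed the mean of the members most closely were Gdpd1 (0.95), Tmx1 (0.93), Sar1a (0.92), Blcap (0.91), Nit2 (0.91), Pes1 (0.91), Pycrl (0.90), Commd7 (0.89), Mcfd2 (0.89) and Lyrm5 (0.89). None of these 10 was on a list of astrocyte genes, and they were the highest of 15415 genes over only 12 libraries.

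Sex was on the labels, and male was compared with female with genotype in the model. No member had an adjusted p below 0.05, where 0.0841% of all genes did, those being 13 genes. At an unadjusted p below 0.05, 6 members were higher in males (3.83% of all genes) and none of the 38 was lower (3.37% of all genes). The 6 were Glul, Gjb6, Cbs, Agt, Itih3 and Fgfr3. Cbs, which makes cystathionine from homocysteine and serine, ran from 22.4 to 31.5 CPM in the 6 females with a median of 28.4, and from 31.9 to 35.4 CPM in the 6 males with a median of 33.8. Every male was above every female, as in 0.194% of all genes. The log2 difference of male over female was 0.27 (SE 0.06, adjusted p = 0.444 in edgeR's quasi-likelihood test). DESeq2 gave 0.27 (SE 0.07) with an adjusted p of 0.0447, and called 0.160% of the genes with an adjusted p.

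The other 5 overlapped between the sexes. Agt was at 94.5 to 173 CPM in females and at 152 to 204 CPM in males, a log2 difference of 0.27 (SE 0.10, adjusted p = 0.644). Itih3 had 0.26 (SE 0.10), Fgfr3 0.17 (SE 0.06), Glul 0.16 (SE 0.06) and Gjb6 0.15 (SE 0.06), with adjusted p from 0.601 to 0.646 in the quasi-likelihood test. Without control 3, a female, the values of Agt and Itih3 were both 0.18 (unadjusted p = 0.0380 and 0.0504 in the same test). The unadjusted p of Itih3 was also above 0.05 without control 4 (0.0528) and without STAT3 KO 5 (0.0566). Agt, Itih3 and Cbs were the genes that followed one another over the animals, so they are not 3 separate observations.

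The interaction of genotype and sex gave no gene an adjusted p below 0.05, 0% of all genes tested. At an unadjusted p below 0.05 it named 2 members, Slc7a11 and Id4, where 5.49% of all genes were named. DESeq2 named 3 members at that threshold, where it named 3.91% of all genes, and none after adjustment. Slc7a11, which brings in cystine for glutathione, was at 25.8 and 22.04 CPM in control females and at 33.6, 29.7, 31.4 and 30.4 CPM in KO females. In males it was at 29.6 and 24.1 CPM in controls and at 26.3, 24.2, 20.2 and 25.6 CPM in KO mice. The KO females were all above the control females, while the males overlapped. The difference in log2 CPM was 0.39 in females and -0.16 in males, with an interaction of -0.54 (SE 0.16, unadjusted p = 0.00443, adjusted p = 0.898 in edgeR's quasi-likelihood test).

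Id4 was at 60.0 and 52.3 CPM in control females and at 93.0, 76.8, 73.9 and 70.9 CPM in KO females, and in males at 65.2 and 60.4 CPM in controls and at 60.8, 67.5, 64.7 and 68.9 CPM in KO mice. Its difference was 0.48 in females and 0.06 in males, with an interaction of -0.42 (SE 0.14, unadjusted p = 0.00962, adjusted p = 0.898), or -0.33 with an unadjusted p of 0.0630 without control 3. Slc1a3 had 0.49 in females and 0.09 in males, and its interaction of -0.40 had an unadjusted p of 0.0696. With 2 control animals of each sex, such differences rest on few values.

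The members were set beside a longer list of 77 further astrocyte genes, of which 76 were tested. None had an adjusted p below 0.05 in edgeR's quasi-likelihood test. None passed with DESeq2 either, but only 1391 genes received an adjusted p there. At an unadjusted p below 0.05 in edgeR's test, 4 further astrocyte genes were higher and 9 lower in KO mice (3.61% and 4.05% of all genes). Their median log2 fold change over the list was 0.0082. The 4 and 9 became 2 and 2 without control 3 (2.89% and 2.12% of all genes), 3 and 4 without control 13 (2.5% and 2.81%) and 6 and 4 without control 11 (4.58% and 3.07%), so the balance between them was not stable. With library totals only they were also 6 and 4 (5.57% and 2.21%). Among those with the lowest p were Dbi at 0.22 (SE 0.06), Dio2 at -0.56 (SE 0.14), Vim at 0.31 (SE 0.08), Slco1c1 at -0.17 (SE 0.06) and Btbd17 at -0.21 (SE 0.08), each with an adjusted p of 0.616. The unadjusted p of Slco1c1 was 0.0648 without control 4, and that of Btbd17 was 0.0759 without control 13 and 0.110 without control 3. Dio2, which activates thyroid hormone in astrocytes, was at 35.9 ± 4.56 CPM in controls and 24.7 ± 5.14 CPM in KO mice, the largest of these differences. Of 22 genes of reactive astrocytes 18 were tested. At an unadjusted p below 0.05, 5 of them (Vim, Cd44, C3, Emp1 and Tnc) were higher (3.61% of all genes) and none lower (4.05%). None had an adjusted p below 0.05 in edgeR's quasi-likelihood test, and which of them received an adjusted p with DESeq2 was not examined. The number higher was 2 without control 4 (4.04% of all genes higher) or STAT3 KO 7 (3.55%), 3 without STAT3 KO 10 (2.78%) or with limma-voom (4.92%), and without control 11 there were 2 higher (4.58%) and 2 lower (3.07%). It rose to 6 with library totals only (5.57%), no filter (3.51%), sex as a covariate (3.71%) or the likelihood ratio test (3.23%). Leaving out STAT3 KO 8 (5.18%) or STAT3 KO 15 (4.06%) also gave 6. Gfap, the usual marker of reactive astrocytes, was at 29.3 ± 5.77 CPM in controls (SD, n = 4) and 34.1 ± 10.1 CPM in KO mice (SD, n = 8), a log2 fold change of 0.19 (SE 0.19, adjusted p = 0.878), or 0.06 without control 3 or STAT3 KO 10.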

How the data were processed

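RNA of DR pieces of 12 mice was sequenced as 75-base single reads (NEBNext Ultra II kit). Reads were mapped by the authors to mm10 with STAR (2.5.0b per the submitters' processing notes, which also list bcl2fastq and DESeq2 1.6.3), and the deposited files hold raw counts per gene symbol. The read counter, annotation and use of strand are not given in the sources used here. Reads on no gene or on several, 13.9% to 15.8% of a library, were left out.

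Tools were R 4.3.3 with edgeR 4.0.16, DESeq2 1.42.0 and limma 3.58.1, and Python 3.11.15 with matplotlib 3.10.9, numpy 2.4.6 and pandas 2.3.3. Genotypes were compared with the quasi-likelihood test of edgeR (two-sided, TMM factors), after filterByExpr (10 counts, 15 in total), and adjusted by Benjamini-Hochberg over 15453 genes at 0.05. The SE is the absolute log2 fold change over the root of the F statistic. CPM were taken over all gene rows, and log2 CPM with a prior count of 2. Two-sided exact permutation tests used the difference in mean log2 CPM. Sex was tested beside genotype, and the interaction with both. Correlations are Pearson's r over the 12 libraries. Group and sex came from the labels.

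The members and gene lists were chosen with earlier results of these data known. Named were all members, Stat3, Slc6a4, Tph2, Ntsr2, Slco1c1, the 10 genes that most resembled the members' mean and the 6 further astrocyte genes of lowest p, of which 1 is not reported here. Genes of the marker lists, Gfap and reactive genes were named after their values were seen. In simulated counts on 15453 genes for the comparison of control and KO, 70% of changes of 0.5 (log2) and 88% of changes of 1 were recovered, and 6.35% of calls were false. Smaller changes were not simulated. The alternatives were other tools, scale factors, filters and correlations, sex as a covariate and animals left out.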

Additional observations from a re-analysis of the deposited data

Results flagged for a closer look

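Of 76 groups of values (38 members in each genotype), 6 held an animal whose gap to its nearest neighbour was large for the range of its group, where chance flags about 1 in 20 groups, or 3.8 of 76. Among controls, Agt was at 94.5 CPM in control 3, against 152 to 159 CPM in the other 3. STAT3 KO 8 was high for Slc1a2, at 1289 CPM, where the other 7 KO mice lay between 1147 and 1210 CPM. The same animal was high for the zinc transporter gene Slc39a12, at 104.6 CPM against 74.9 to 86.7 CPM, and for Acsbg1, at 306.9 CPM against 252 to 276 CPM. STAT3 KO 6 was low for Fabp7, at 14.4 CPM against 27.1 to 36.8 CPM, and high for Mt1, at 274 CPM against 147 to 200 CPM. STAT3 KO 8 was one of the animals with a high choroid plexus level, and its part in these values was not tested.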

How the results depend on the processing

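No member had an adjusted p below 0.05 for genotype under any of the 22 alternatives, but 18 members received no adjusted p with DESeq2. The median log2 fold change stayed between 0.02 (limma-voom) and 0.07. Of 836 values of single members, 11 lost and 29 gained an unadjusted p below 0.05. The sign differed in 67 values, of 14 members, none of them with an unadjusted p below 0.05, among them Cbs at -0.03 without control 3. The number higher in KO mice at an unadjusted p below 0.05, 3 as reported, was 5 with library totals only (5.57% of all genes), with sex as a covariate (3.71%) and without control 4, STAT3 KO 8 and STAT3 KO 16 (6.34%). With 1 animal left out it was 2 (without control 13, 2.5% of all genes) to 6 (without control 4, STAT3 KO 7 or STAT3 KO 5, at 4.04%, 3.55% and 3.30%). The number lower was 1 (without control 13 or control 11, 2.81% and 3.07% of all genes) to 4 (without STAT3 KO 8, 5.67%). For sex, DESeq2 gave 1 member past adjustment. The number with an interaction, 2 as reported, was 4 with no filter (5.04% of all genes) and 1 (without control 3, 3.58%) to 8 (without control 13, 5.87%) with 1 animal left out. The median correlation with the other members was 0.24 with TMM and 0.28 to 0.42 with 1 animal left out. The causes were not tested. No paired analysis was possible because the animals' numbers are not shared between genotypes. All members lay far above the floor, but the effect of depth on them was not tested. The gene counts of a library summed to 24379588 to 27849492 in controls and to 27324999 to 29645210 in KO mice. The TMM factors were 0.985 to 0.995 in controls and 0.999 to 1.013 in KO mice, so depth and scale factors went with genotype. The 4 controls limit the spread they show.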
